A study of Mus musculus with 28 samples.

Results

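Potassium channel genes were taken as every gene whose short name in the single-cell table began with Kcn, leaving out names that hold -ps, which gave 96 gene entries of the 37974 in that table. They carried 94 symbols, because Kcnh8 and Kcnb2 each had 2 Ensembl identifiers. The tissue table held 69 of them by the same identifier, 49 of these were abundant enough to be tested, and the other 27 were not analysed in tissue. By role, 32 entries encode pore-forming subunits of voltage-gated channels, 10 modulatory subunits that are silent on their own, 16 auxiliary subunits, 8 calcium- or sodium-activated channels, 15 inward rectifiers and 14 leak channels with a pair of pore domains, and Kcnrg, which is no channel, made up the rest.

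The RNA came from the walls of the lateral ventricle next to the striatum of C57BL/6 mice, that is the ependymal zone with the subependymal or subventricular zone (EZ-SEZ/SVZ), a niche of adult neural stem cells. One experiment measured this tissue in 3 samples from mice of 3 weeks and 3 from mice of 18 months. The other measured 22 single cells by Smart-seq2, in 3 subpopulations: Prom1+ cells (3 of 1 month, 3 of 24 months), Gfap+ cells (2 and 5) and Dlx2+/Dcx+ cells (5 and 4). The cells were sorted from a gate set on size and complexity and picked by hand, those expressing Prom1, Gfap, Dlx2, Dcx or similar markers by qPCR were kept, and the subpopulations were named by the study from these same transcriptomes, so they are not independent of the genes measured. No animal is named for any sample or cell, so p-values in tissue measure the spread between samples, which may be technical, and cells were not tested. All values are FPKM, fragments scaled to the length of the transcript and to the mapped total of the sample, which allows levels of different genes to be compared.

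Potassium channels let potassium leave or enter a cell along its gradient and thereby set the resting potential and shape electrical signals. Voltage-gated channels open on depolarisation, inward rectifiers and leak channels hold the resting potential, and in glia they also clear potassium that neurons release. In the SEZ/SVZ, neural stem cells and astrocytes are known for a negative resting potential carried by potassium channels, and neuroblasts for voltage-gated currents that appear as they mature.

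What the pore-forming members share is the selectivity filter, the stretch of the pore that lets potassium through. Its codons are shown for pore-domain members on which the results below turn, to show how alike their coding sequences are at the place such members have in common. Each line gives 30 coding bases from the longest annotated coding transcript (GENCODE M21, GRCm38), 5′ to 3′, and the capitals mark the 15 bases of the filter.
Kcna1: tccatgaccACTGTGGGATACGGTgacatg
Kcna6: acaatgaccACGGTAGGTTATGGGgacatg
Kcns1: agcatgaccACAGTGGGCTATGGGgatgtg
Kcnj10: tcccagaccACCATCGGCTATGGCttccgc
Kcnk13, pore domain 1: gtggtttctACCATAGGGTTTGGGatgaca

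The filter was searched as threonine or serine, then valine, isoleucine, leucine or threonine, then glycine, then tyrosine, phenylalanine or leucine, then glycine. Of 91 potassium channel entries searched 74 held it (81.3%), against 1.57% of 22101 coding genes. The coding genes include the members, and the pattern was written to find this filter, so these shares describe the search and test nothing. All 14 leak channels searched held it at least 2 times, and all 30 voltage-gated, 9 modulatory, 14 inward rectifier and 7 calcium- or sodium-activated entries once. None of the 16 auxiliary subunits held it. Any pair of Kcna1, Kcna6 and Kcns1 shared 22 or 23 of the 30 bases and 10 to 12 of the 15 filter bases. Kcnj10 shared 16 or 17 of the 30 with each of them, and the first pore domain of Kcnk13 11 to 14, but both shared 8 to 11 of the 15 filter bases with each of the 3.

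In the tissue, the most abundant potassium channel genes were auxiliary subunits and glial or leak channels, and most of these did not differ with age beyond the spread between samples. Kcnip2, a calcium-binding subunit of A-type voltage-gated channels, stood highest, at a mean of 95.1 FPKM over the 6 samples. It read 59.3, 131.9 and 119.5 FPKM at 18 months and 107.0, 103.6 and 49.1 at 3 weeks, so the ages overlapped. Kcnab2, a cytoplasmic beta subunit of voltage-gated channels, was the steadiest of the abundant ones, with 80.9, 76.8 and 72.7 FPKM at 18 months and 73.7, 74.5 and 83.0 at 3 weeks. Kcnj10, the inward rectifier through which astrocytes take up potassium, read 54.9, 46.9 and 56.8 FPKM at 18 months and 56.0, 57.2 and 53.4 at 3 weeks. Kcnk2, a leak channel that responds to stretch, read 31.8, 26.7 and 33.3 against 27.5, 33.9 and 32.1 FPKM. The log2 fold changes of Kcnab2, Kcnj10 and Kcnk2, 18 months minus 3 weeks on log2(FPKM + 1), were −0.0046, −0.07 and −0.03, with standard errors of 0.10, 0.11 and 0.14.

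Others of the most abundant members varied more. Kcnip3, another calcium-binding subunit that is also known as a transcriptional repressor, read 61.0, 57.3 and 12.4 FPKM at 18 months and 57.2, 13.2 and 68.2 at 3 weeks, so that 1 sample of each age lay far below the others. Kcnd2, the pore of an A-type channel, read 23.7, 3.88 and 28.1 against 19.9, 15.5 and 14.4 FPKM. Kcnmb4, a beta subunit of the large-conductance calcium-activated channel, read 11.9, 20.7 and 10.9 against 10, 21.2 and 23.6 FPKM. The ages overlapped for each of these 3 genes.

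**Figure D1:**
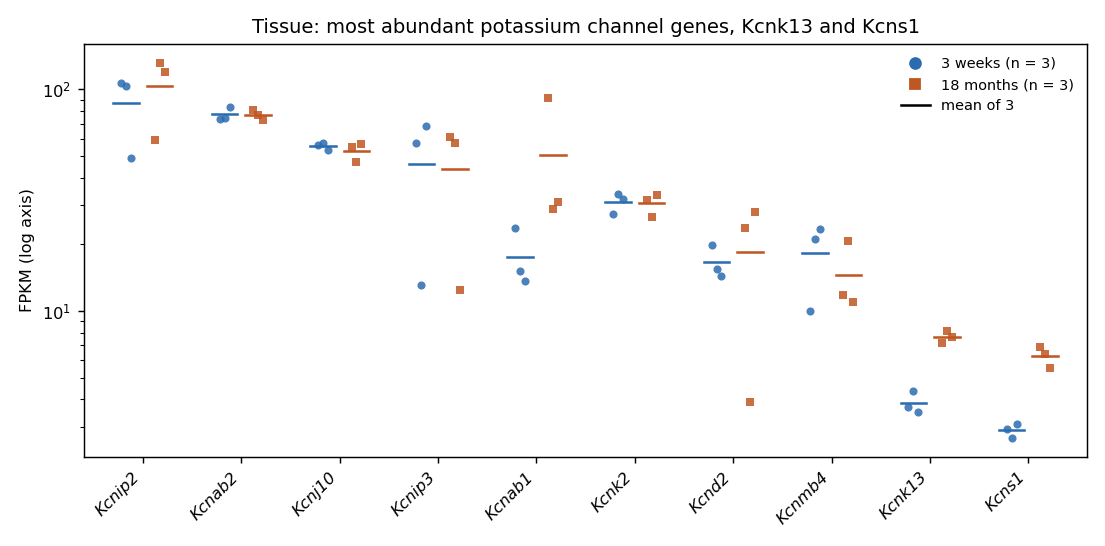
FPKM (log axis) of the 8 potassium channel genes with the highest mean in tissue, and of Kcnk13 and Kcns1, in the 3 samples of 3 weeks (circles) and the 3 of 18 months (squares); bars are means of 3. Kcnk13 and Kcns1 separate by age at 3.52 to 8.14 and 2.67 to 6.92 FPKM, while Kcnab2, Kcnj10 and Kcnk2 lie together.

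To be called, a gene needed a log2 fold change beyond 1 or −1 and a limma p below 0.05 before adjustment, and genes with a Benjamini-Hochberg adjusted p below 0.05 were counted separately. Among the 49 tested members 1 was called higher at 18 months and 0 lower, where 1.83% and 2.07% of all 12287 genes tested were called higher and lower. By adjusted p, 2 members were higher and 0 lower, against 2.51% and 2.42% of all genes. At an unadjusted p under 0.05 with no limit on the fold change, limma gave 11 members higher and 2 lower, where 15.4% and 8.93% of all genes were. The ages did not overlap for 16 members, 14 higher and 2 lower at 18 months. Among all 12287 genes they did not overlap for 4070 (33.1%), 2566 higher and 1504 lower. The share of members was about that of all genes for the total only. The median log2 fold change over the members was 0.30, beside 0.09 over all genes, and 59.2% of the members lay above 0, beside 58.8% of all genes. The median over the members was 0.0902 with no filter on low values, which brings in members too low to be tested. It was 0.18 without replicate 3 of 18 months. The median over all genes under these settings is not given here, so these values have no like figure beside them.

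Kcns1, a modulatory subunit that alters the kinetics of delayed rectifiers and forms no channel alone, rose with age. It read 6.92, 6.39 and 5.53 FPKM at 18 months and 2.93, 2.67 and 3.09 at 3 weeks, means of 6.28 ± 0.70 and 2.90 ± 0.21 (SD, n = 3 each). All 3 samples of 18 months lay above all 3 of 3 weeks. The log2 fold change was 0.90 with a standard error of 0.13 (limma, Benjamini-Hochberg adjusted p = 0.0235). The gene lies on chromosome 2, 164163619 to 164171113 on the minus strand (GRCm38), with 4 exon blocks.

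Kcnk13, a leak channel that volatile anaesthetics inhibit, rose by a like amount. It read 7.20, 8.14 and 7.66 FPKM at 18 months and 3.70, 4.37 and 3.52 at 3 weeks, means of 7.67 ± 0.47 and 3.86 ± 0.45 (SD, n = 3 each), again with no overlap. The log2 fold change was 0.84 with a standard error of 0.13 (limma, Benjamini-Hochberg adjusted p = 0.0262). The gene lies on chromosome 12, 99964499 to 100062682 on the plus strand. Adding 1 to FPKM before taking the log makes changes of low genes look smaller, and on that scale neither increase reached the fold limit of a call. The adjusted p rose above 0.05 for both genes when replicate 2 of 18 months or any 1 of the 3 samples of 3 weeks was left out (limma, 0.0734 to 0.104 for Kcns1 and 0.0796 to 0.0913 for Kcnk13). For Kcnk13 it also did so without replicate 3 of 18 months, at 0.0793.

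Kcnab1, a beta subunit that speeds the inactivation of voltage-gated channels, was the member called by the limits. It read 91.8, 28.9 and 31.2 FPKM at 18 months and 23.7, 15.1 and 13.6 at 3 weeks, a log2 fold change of 1.31 with a standard error of 0.49 (limma, unadjusted p = 0.0374, adjusted p = 0.178). All samples of 18 months lay above those of 3 weeks, and replicate 1 of 18 months stood far above the other 2 of its age. Without that sample the log2 fold change was 0.79 and the call was lost, and it was also lost without replicate 2 or replicate 3 of 3 weeks. Its exons share 201 bases with those of A330015K06Rik on the opposite strand. Whether fragments were counted by strand is not given in the sources used here.

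By role, and beside the 15.4% of all genes, the increases at an unadjusted p under 0.05 took 5 of the 20 tested voltage-gated subunits, of which Kcnd1, Kcnh1, Kcnh2 and Kcnh7, named after their values were seen, had log2 fold changes of 0.35 to 0.57 (limma, Benjamini-Hochberg adjusted p of 0.0973 to 0.156). They also took 2 of 10 auxiliary subunits, 1 of 7 inward rectifiers, 1 of 6 calcium- or sodium-activated channels, 1 of 4 leak channels and 1 of 2 modulatory subunits. The 2 decreases included Kcne1l, a small single-span auxiliary subunit coded on the X chromosome, also named after its values were seen. Kcne1l read 12.1, 12.2 and 10.1 against 15.9, 17.5 and 19.0 FPKM, a log2 fold change of −0.57 (limma, Benjamini-Hochberg adjusted p = 0.0711). The ages did not overlap, and the adjusted p did not pass 0.05.

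**Figure D2:**
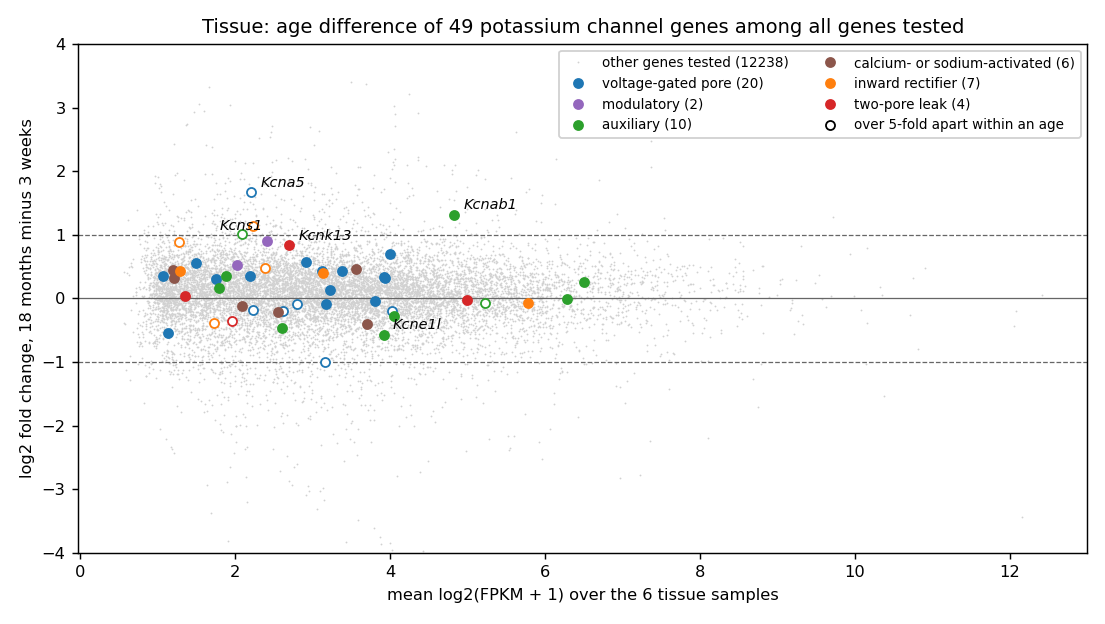
Log2 fold change (18 months minus 3 weeks) against mean log2(FPKM + 1) over the 6 tissue samples, for 49 potassium channel genes coloured by role and 12238 other genes tested in grey. Open circles are members over 5-fold apart within an age, dashed lines mark log2 fold changes of 1 and −1, and 17 other genes lie beyond the axis. Kcnab1 is the one filled circle beyond a dashed line.

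Summed over the 69 members in the table, potassium channel FPKM was 701, 696 and 658 at 18 months and 607, 584 and 581 at 3 weeks, so the ages did not overlap. Without Kcnab1 the sums were 609.2, 667.2 and 626.9 against 582.8, 569.1 and 567.0, which include members that read near 0 in some samples of an age. The voltage-gated pore subunits summed to 202, 179 and 192 against 155, 150 and 154 FPKM. The auxiliary subunits, which made up the largest part, summed to 333, 343 and 275 against 301, 265 and 269 FPKM, and the calcium- or sodium-activated channels to 31.2, 33.3 and 41.5 against 35.5, 39.8 and 29.6 FPKM, both with overlap. The inward rectifiers summed to 83.2, 73.9 and 88.3 against 73.0, 77.2 and 72.0 FPKM, also with overlap. These sums are descriptions and were not tested. In bulk tissue, more cells of a type and more RNA per cell cannot be told apart.

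Markers of several cell types moved with age in the same samples. The 10 oligodendrocyte markers in the table summed to 3850 to 4550 FPKM at 18 months and 20000 to 22200 at 3 weeks, and 7 of the 9 tested were lower by adjusted p. Mbp alone read 1038 to 1688 FPKM at 18 months and 14160 to 15910 at 3 weeks. The median log2 fold change of the 9 was −1.19. Oligodendrocyte precursor markers (4 of 4 below 0, 3 by adjusted p) summed to 18.6 to 21 against 70.1 to 77.2 FPKM. Neuroblast markers (6 of 7 tested below 0, 4 by adjusted p) summed to 216 to 223 against 348 to 393 FPKM, and those of activated neural stem cells (6 of 7, 2 by adjusted p) to 108 to 252 against 279 to 323 FPKM. Striatal neuron markers summed to 2180 to 2480 against 1080 to 1760 FPKM, with 5 of 6 tested above 0, 1 called higher and 0 by adjusted p. Ependymal markers summed to 186 to 220 against 141 to 174 FPKM (3 of 4 tested above 0) and endothelial markers to 32.3 to 36.7 against 45.4 to 60.5 FPKM (5 of 6 below 0), both without overlap and with 0 by adjusted p. The sums of neuron (1250 to 1830 against 1300 to 1530 FPKM), astrocyte (765 to 1180 against 873 to 1220), microglia (106 to 241 against 94.2 to 194), mural (52.0 to 70.4 against 57.8 to 60.4) and choroid plexus markers (10.1 to 17 against 10.7 to 12.1) overlapped. The part of these cell types in the differences of Kcns1, Kcnk13 and Kcnab1 was not tested.

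A group of members read high in some samples and near 0 in others of the same age. For 13 of the 49 tested members (26.5%) the highest and lowest of the 3 samples of an age lay over 5-fold apart, with values under 0.01 FPKM set to 0.01, against 11.6% of all genes tested. Kcna1, Kcna2, Kcna4, Kcna5 and Kcna6, pore subunits of the Shaker subfamily of voltage-gated channels, were 5 of the 13. Kcna2 read 14.9, 0.12 and 16.2 FPKM at 18 months and 14.7, 16.96 and 0.32 at 3 weeks. Kcna5 read 21.8 and 23.5 FPKM in 2 samples of 18 months and was listed at 0 in the other, and at 3 weeks it read 16.3 FPKM in 1 sample and was listed at 0 in 2. Kcna6 read 0.29, 11.1 and 15.2 FPKM at 18 months and 10.7, 11.7 and 12.5 at 3 weeks. The low sample was shared by some of these genes but not by all. At 18 months Kcna1, Kcna4 and Kcna5 were lowest in replicate 3, Kcna2 in replicate 2 and Kcna6 in replicate 1. At 3 weeks Kcna4 was lowest in replicate 1, Kcna5 was listed at 0 in replicates 1 and 2, and Kcna2 was lowest in replicate 3.

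**Figure D3:**
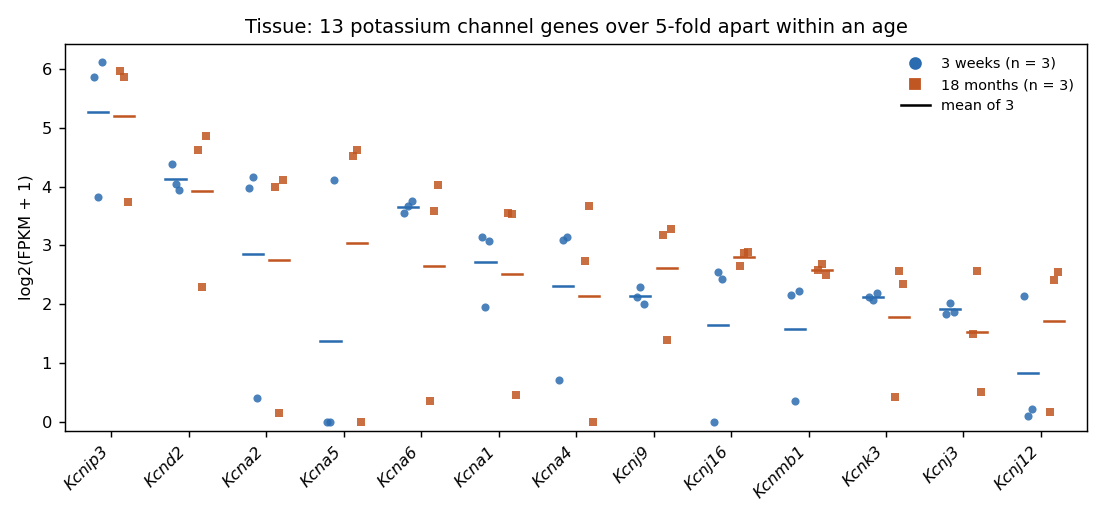
Log2(FPKM + 1) in tissue of the 13 tested potassium channel genes whose 3 samples of an age lay over 5-fold apart, at 3 weeks (circles) and 18 months (squares), with means of the 3 log2 values as bars. Points near 0 stand beside high points of the same age, as for Kcna5, listed at 0 in 1 sample of 18 months and at 21.8 and 23.5 FPKM in the others. The sample that is low is not the same for every gene.

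A spread this wide was more frequent among genes with few exons, for members and for all genes alike. Of tested members with 3 or fewer exon blocks 5 of 11 (45.5%) were over 5-fold apart, against 30.5% of all tested genes with as few. Of members with more than 3 exon blocks 8 of 38 (21.1%) were, against 6.19% of all such genes. The 36 members within 5-fold in each age held the call of Kcnab1 and the increases of Kcns1 and Kcnk13, with a median log2 fold change of 0.32. Among the 10863 genes of any kind within 5-fold in each age, 184 were called higher and 192 lower, and the median was 0.09. The 36 steady members summed to 537, 530 and 551 FPKM at 18 months and 475, 497 and 422 at 3 weeks, and the 13 others to 159, 146 and 101 against 127, 83.1 and 145 FPKM. Without Kcnab1 the other 35 steady members summed to 444.8, 501.3 and 520.1 against 451.4, 481.5 and 408.4 FPKM, so the ages overlapped and the separation of the steady sum rested on that gene.

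Genes that work with potassium channels without being among them were read from a list of 44 pumps, cotransporters, pacemaker channels and proteins that anchor or regulate channels, of which 33 were tested in tissue. By the limits 3 were called higher and 1 lower, and by adjusted p 3 were higher and 0 lower, where 1.83% and 2.07% of all genes were called and 2.51% and 2.42% passed the adjusted p. The median log2 fold change over the 33 was 0.26, beside 0.09 over all genes. Atp1b3, a beta subunit of the sodium-potassium pump, rose from 22.4, 15.01 and 18.6 FPKM at 3 weeks to 61.3, 75.3 and 75.4 at 18 months, a log2 fold change of 1.88 with a standard error of 0.18 (limma, Benjamini-Hochberg adjusted p = 0.00699). Sgk1, a kinase that hormones induce and that regulates ion channels and transporters, rose from 24.6, 33.9 and 31.1 FPKM to 82.2, 100.3 and 120.2, a log2 fold change of 1.72 with a standard error of 0.19 (limma, Benjamini-Hochberg adjusted p = 0.0118, and 0.052 without replicate 2 of 18 months). Dpp10, an auxiliary protein of A-type channels, rose from 3.99, 3.21 and 2.86 FPKM to 7.43, 6.90 and 9.28, a log2 fold change of 1.03 with a standard error of 0.17 (limma, Benjamini-Hochberg adjusted p = 0.0325). That adjusted p was between 0.0527 and 0.123 when any single sample was left out, and its call was lost without replicate 3 of 18 months (log2 fold change 0.92), without replicate 3 of 3 weeks (0.94) and with quantile normalization (0.95). Adam22, which anchors voltage-gated channels at axons and synapses, read 3.46, 10.1 and 8.08 FPKM at 18 months and 15.4, 16.7 and 12.2 at 3 weeks, a log2 fold change of −1.03 (limma, unadjusted p = 0.031, adjusted p = 0.162), and its call was lost without replicate 1 of 18 months, where the log2 fold change was −0.64, and without replicate 1 or replicate 2 of 3 weeks. In every one of the 4 genes the ages did not overlap.

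In the single cells, 36 of the 96 entries were above 1 FPKM in at least 1 of the 22 cells, which is 37.5% against 40.8% of all genes in the table. In at least 3 cells there were 14, which is 14.6% against 29.8% of all genes. Another 13 were above 1 FPKM in 1 cell only and 9 in 2 cells, and 46 were listed at 0 in every cell. A listed 0 alone does not show absence, since Actb, a gene every cell uses, was listed at 0 in 6 cells and Hprt in 4. Gapdh, Eef1a1, Eef2, Ubb and Rpl13a, read beside them, were listed at 0 in no cell. Each cell held between 3 and 9 members above 1 FPKM, and 4398 to 6626 genes of any kind at 1 FPKM or more. The 3 subpopulations shared 5 members, while 4 were above 1 FPKM in Prom1+ cells alone, 7 in Gfap+ cells alone and 8 in Dlx2+/Dcx+ cells alone. Of these 19 members 13 were above 1 FPKM in a single cell, which can only fall in 1 subpopulation. The 19 were 52.8% of the 36 members above 1 FPKM in a cell, beside 24.6% of all such genes, of which 2632 of 3805 were also seen in a single cell.

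The genes in the names of the subpopulations were used to choose and name the cells, so their levels are a description. Prom1 read 1.49 to 56.6 FPKM in the 6 Prom1+ cells, which had all 8 markers of activated neural stem cells above 1 FPKM in 0.5 or more of the cells. Dcx read 15.8 to 267 FPKM in the 9 Dlx2+/Dcx+ cells, with 8 of 9 neuroblast markers. Gfap itself lay between 48.7 and 194.5 FPKM in all 7 Gfap+ cells and passed 1 FPKM in no other cell. The Gfap+ cells also had 11 of 12 oligodendrocyte markers above 1 FPKM in that share of cells, where Prom1+ cells had 4 and Dlx2+/Dcx+ cells 5, with Mbp at 6346 to 19570 FPKM. They had 4 of 10 astrocyte markers and Prom1+ cells 5. Gfap+ cells were above 1 FPKM for Slc1a3 in 7, S100b in 6 and Aldoc in 5 of the 7 cells, and for Aqp4, Gjb6 and Aldh1l1 in none. In Prom1+ cells Mbp read 0.733 to 92.8 FPKM and in Dlx2+/Dcx+ cells 2.19 to 95.4 FPKM. The part of these transcripts in the values of Gfap+ cells was not tested.

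In Gfap+ cells, Kcnk13, the leak channel that rose in tissue, was above 1 FPKM in 5 of the 7, at 27.3 to 233 FPKM, and read 0.83 FPKM and 0.74 FPKM in the other 2. It was above 1 FPKM in none of the other 15 cells. Kcna1, a low-threshold voltage-gated subunit of axons, was also above 1 FPKM in 5 of 7 Gfap+ cells. It read 126.7 and 332.4 FPKM in the 2 of 1 month and 0.08, 3.70, 0.51, 236.7 and 59.5 FPKM in the 5 of 24 months, and was above 1 FPKM in no other cell. Kcna6, a subunit of the same subfamily, read 13.7 and 19.6 FPKM at 1 month and 10.2, 37.9, 38.8, 5.04 and 0.34 FPKM at 24 months. Outside Gfap+ cells it was above 1 FPKM in 1 Prom1+ cell, at 7.26 FPKM. Its exons share 2355 bases with those of Gm26673 on the opposite strand.

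Kcnj10, the glial inward rectifier, was above 1 FPKM in 20 of the 22 cells, more than any other member. Its level was highest in Gfap+ cells, with a median of 39.8 FPKM and a range of 4.47 to 129.7, while the median was 2.27 FPKM in Prom1+ cells (0.85 to 60.4) and 1.81 FPKM in Dlx2+/Dcx+ cells (0.49 to 3.97). The range of Gfap+ cells lay wholly above that of Dlx2+/Dcx+ cells and overlapped that of Prom1+ cells. Kcnh6, a pore subunit of the ether-a-go-go family, was above 1 FPKM in 18 cells, with medians of 10.4 FPKM in Gfap+ cells, 4.17 in Dlx2+/Dcx+ cells and 1.94 in Prom1+ cells. The ranges of these 3, 0 to 16.9, 0.83 to 9.21 and 0 to 3.37 FPKM, overlapped. In tissue it read 0.38 to 0.56 FPKM and was not tested there. Kcnq5, of the M-current family, passed 1 FPKM in 4 Gfap+ cells, at no more than 6.04 FPKM.

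**Figure D4:**
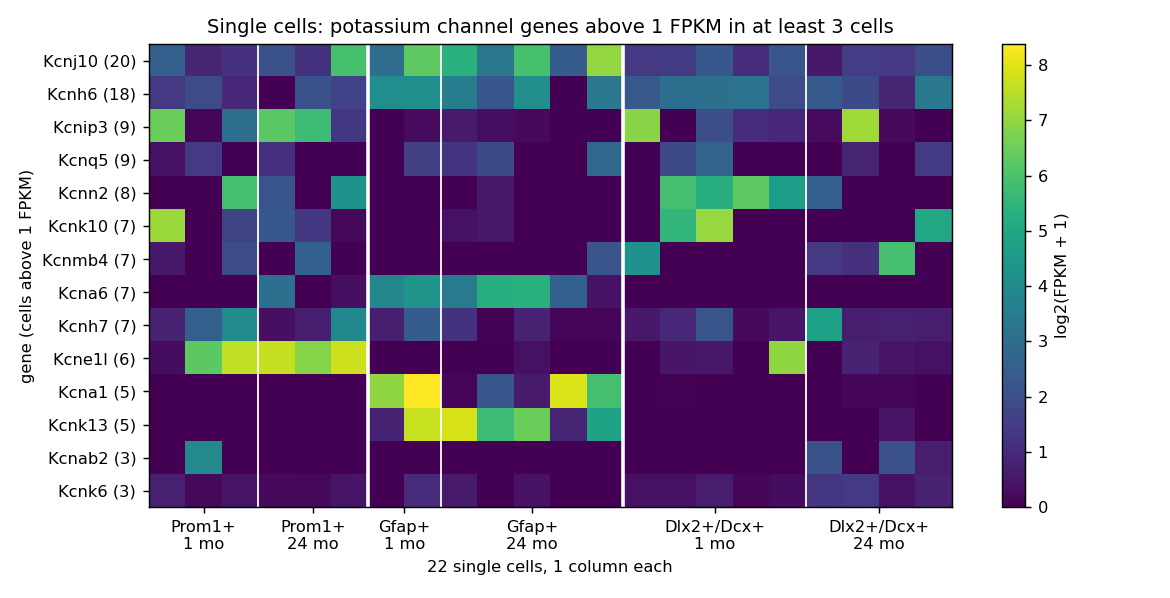
Log2(FPKM + 1) of the 14 potassium channel genes above 1 FPKM in at least 3 of 22 single cells, 1 column per cell, grouped by subpopulation and age (mo, months); the number of cells above 1 FPKM follows each name. Kcnk13 and Kcna1 are bright in Gfap+ cells alone, Kcne1l in 5 of 6 Prom1+ cells, and Kcnn2 in 4 of 5 Dlx2+/Dcx+ cells of 1 month.

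Prom1+ cells were led by auxiliary subunits. Kcne1l was above 1 FPKM in 5 of the 6, at 0.22, 76.3 and 190.3 FPKM in the 3 cells of 1 month and 198.1, 115.1 and 210.9 in the 3 of 24 months. Among the other 16 cells it was above 1 FPKM in 1, a Dlx2+/Dcx+ cell of 1 month at 126.0 FPKM. Kcnip3 was above 1 FPKM in 5 of 6 Prom1+ cells, at 88.5, 0.10 and 7.21 FPKM at 1 month and 74.3, 52.9 and 1.57 at 24 months, and in 4 of 9 Dlx2+/Dcx+ cells, at up to 145.7 FPKM, but in none of 7 Gfap+ cells. Kcnk10, a stretch-sensitive leak channel close to Kcnk2, was above 1 FPKM in 4 of 6 Prom1+ cells, at up to 138.4 FPKM, and in 3 of 9 Dlx2+/Dcx+ cells, at up to 136.2 FPKM. Kcnh7, of the same family as Kcnh6, was above 1 FPKM in 3 of 6, with a median of 2.83 FPKM and a highest value of 15.5. Kcnk10 is among 7 members that were above 1 FPKM in a cell and were not analysed in tissue.

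Dlx2+/Dcx+ cells had 23 members above 1 FPKM in some cell, but 3 in 0.5 or more of the 9 cells: Kcnj10, Kcnh6 and Kcnn2. That is 13% of the 23, beside 38.9% of all genes above 1 FPKM in some cell of the subpopulation, where Prom1+ cells had 43.8% beside 55.7% and Gfap+ cells 31.6% beside 41.5%. Kcnn2, the small-conductance calcium-activated channel that follows trains of spikes, was listed at 0 in 1 cell of 1 month and read 59.7, 38.1, 77.5 and 24.7 FPKM in the other 4. At 24 months it read 4.86 FPKM in 1 cell and was listed at 0 in 3. The difference of mean log2(FPKM + 1), 24 months minus 1 month, was −3.80, and the ages overlapped because of the cell of 1 month listed at 0. In Prom1+ cells Kcnn2 was above 1 FPKM in 3 of 6 and read up to 58.2 FPKM, and in Gfap+ cells in none. In the tissue Kcnn2 read 8.32, 10.1 and 12.9 FPKM at 18 months and 15.1, 16.2 and 11.2 at 3 weeks, a log2 fold change of −0.41 (limma, Benjamini-Hochberg adjusted p = 0.296). Its exons share 323 bases with those of AC121957.1 on the opposite strand.

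With all cells included, no potassium channel gene had ages that did not overlap in a subpopulation. Of the members above 1 FPKM in at least 1 cell of a subpopulation, that is 0 of 16 in Prom1+, 0 of 19 in Gfap+ and 0 of 23 in Dlx2+/Dcx+ cells. Of all such genes, 7.74%, 6.01% and 1.61% had ages that did not overlap. Leaving out 1 cell gave 1 to 2 such members in Prom1+, 0 to 4 in Gfap+ and 0 to 1 in Dlx2+/Dcx+ cells. The share of all genes with 1 cell left out is not given here, and smaller groups separate more readily, so these counts have no background. Summed potassium channel FPKM per cell was 106.9 to 285.2 at 1 month and 181.1 to 318.6 at 24 months in Prom1+ cells. It was 166.0 and 663.0 at 1 month and 177.2 to 324.4 at 24 months in Gfap+ cells, and 93.2 to 209.5 against 48.1 to 241.8 in Dlx2+/Dcx+ cells. In every subpopulation the ages overlapped, and the sign of the difference of means turned when 1 cell was left out.

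Of the 18 members with a tissue mean above 10 FPKM, 6 (33.3%) were above 1 FPKM in no cell, beside 7.73% of the 5228 genes of any kind with such a mean and a row in both tables. Among these, Kcnip2, Kcnd2, Kcna2 and Kcna5 were listed at 0 in all 22 cells. Actb and Hprt were listed at 0 in 6 and 4 cells only, and whether these members were absent was not tested. Of the partner genes that rose in tissue, Atp1b3 lay between 51.4 and 369.3 FPKM in the 7 Gfap+ cells, with a median of 40.1 FPKM in Prom1+ cells and 0.44 in Dlx2+/Dcx+ cells. Dpp10 was listed at 0 in all 22 cells. Sgk1 passed 1 FPKM in 5 Gfap+ cells, reaching 1013 FPKM, and its median was 0 in Prom1+ and 0.16 FPKM in Dlx2+/Dcx+ cells.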

How the data were processed

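Groups and replicate numbers were read from the labels of the 6 tissue samples and 22 cells. The authors deposited FPKM values, 1 column per sample or cell, and no read counts were used here. The submitters' processing notes name GRCm38, HISAT2, StringTie and featureCounts, without versions, roles or annotation. The number of fragments behind each value was not analysed here; 11733 to 12127 genes per tissue sample were at 1 FPKM or more, and low FPKM values have coarse steps. Columns of no labelled sample: 0.

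Identifiers were matched to GENCODE M21 (GRCm38), 86.7% of the cell table, 99.2% of the tissue table and 93 of the 96 members. In tissue, genes reaching 1 FPKM in 3 or more samples entered a linear model of log2(FPKM + 1) on age alone, with variances moderated along the mean (limma 3.58.1, R 4.3.3), with Benjamini-Hochberg adjustment over all 12287 genes. The study tested counts, which were not used here. The fit was tested on simulated data first. Cells were described, with a limit of 1 FPKM, and not tested, since each subpopulation and age counts as 1 sample. Python 3.11.15, numpy 2.4.6, pandas 2.3.3 and matplotlib 3.10.9 were used.

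The members, roles, partner and marker lists were chosen with earlier results of these data known. Named were members past a limit in tissue, the 10 most abundant there, in each subpopulation members above the limit in 0.5 or more of the cells (values for at most the 6 highest), members separating the ages in a subpopulation (0 found), and partners past the limits. Others are named where a count was 5 or fewer or a value was singled out, after their values were seen.

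Alternatives were a pseudocount of 0.1, no filter, FPKM rescaled to an equal sum per sample (TPM), quantile normalization, the replicate number as a block, other limits in cells, medians, and each sample or cell left out. The count without a fold limit, the split by spread within an age and the sums without Kcnab1 were added after the data were seen. Protein sequences were not used here, and a few members and 1 sequence that the rule names are not reported here.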

Additional observations from a re-analysis of the deposited data

Results flagged for a closer look

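Dixon's ratio, the gap of the end value over the range, was computed for 21 sets of values from groups of 4 to 5 cells and passed its limit in 4. Chance gives about 1 in 20 for values without ties, and the ratio describes cells, not animals. Kcnn2 in the 5 Dlx2+/Dcx+ cells of 1 month had its lowest cell, listed at 0, far below the other 4 at 24.7 to 77.5 FPKM. Kcnn2 in the 4 Dlx2+/Dcx+ cells of 24 months had its highest cell, 4.86 FPKM, apart from the other 3, which were listed at 0. With 3 tied values the ratio is at its maximum for any value of the remaining cell, so it adds nothing to the values themselves. The number of potassium channel genes above 1 FPKM was highest, at 9, in 1 Dlx2+/Dcx+ cell of 1 month, beside 5 to 6 in the other 4. It was lowest, at 3, in 1 Gfap+ cell of 24 months.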

How the results depend on the processing

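The log2 fold changes of Kcns1 and Kcnk13 stayed above 0 in every alternative, at 0.82 to 1.09 and 0.77 to 0.97, and that of Kcnab1 at 0.79 to 1.60. With a pseudocount of 0.1 and with TPM scaling, 2 members were called higher (Kcns1 joined Kcnab1), and all genes called higher went from 225 to 416 and 521. With no limit on the fold, 11 members were higher and 2 lower by unadjusted p. By adjusted p 1 member was lower without a filter (Kcnq1) and 1 with quantile normalization. The median log2 fold change of the members was 0.0902 with no filter and 0.22 with quantile normalization.

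The replicate numbers did not pair the tissue samples (correlations of deviations −0.10, −0.01 and −0.10 for equal numbers). With the replicate block 0 members and 0 partner genes passed the adjusted p; Kcnab1 stayed called.

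Leaving out 1 tissue sample gave 0 to 2 members called higher, 0 to 2 higher by adjusted p, a median of 0.18 to 0.31, 2 to 4 partners called higher, 0 to 2 called lower, and 1 to 3 partners higher and 0 to 1 lower by adjusted p. Without replicate 2 of 18 months the second call was Kcnj9 (log2 fold change 1.09). Directions turned for genes near 0: Kcnab2 ranged over −0.0419 to 0.0492, Kcnj10 −0.13 to 0.0092, Kcnk2 −0.11 to 0.0664, Kcnip2 −0.10 to 0.61, Kcnip3 −0.80 to 0.64 (0.22 without replicate 1 and 0.35 without replicate 3 of 3 weeks) and Kcnd2 −0.67 to 0.62. With TPM scaling Kcnab2 was at 0.0301 and Kcnk2 at 0.0071.

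In cells, a limit of 5 FPKM left 2 members in 0.5 or more of Prom1+ and 0 in Dlx2+/Dcx+ cells, and 0.5 FPKM gave 5 in the latter and 1 non-overlapping in Gfap+ cells. Leaving out 1 cell gave 3 to 5 members in 0.5 or more of Dlx2+/Dcx+ cells, and 1 to 2, 0 to 4 and 0 to 1 non-overlapping members in Prom1+, Gfap+ and Dlx2+/Dcx+ cells. With 1 cell left out the groups are smaller, and the share of all genes is not given here. The causes of these changes were not tested.

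With 3 samples an age, and 2 to 5 cells, small differences could not be seen. FPKM without counts gives no counting error.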
